A study of Mus musculus with 27 samples.

Results

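Oxidative phosphorylation in mitochondria is carried out by complexes I to V, and the nuclear genes for their subunits were followed here across sorted cells of the adult mouse retina. The genes were chosen by name: every probe set with exactly 1 gene symbol that begins with Nduf, Uqcr, Atp5, Cox4, Cox5, Cox6, Cox7 or Cox8, together with Sdha, Sdhb, Sdhc, Sdhd and Cyc1. This gave 92 probe sets for 89 genes of the 19301 genes with a probe set of their own. Where a gene had more than 1 probe set, as 3 genes did, the one with the highest mean over all arrays was kept. By role, 33 genes encode subunits of complex I, 4 of complex II, 9 of complex III, 18 of complex IV and 17 of complex V, and 8 encode factors that help to assemble them. Another 4 probe sets name a member together with other genes and were left out. Of the 89 genes, 88 passed the filter on dim genes and were tested, and Ndufa4l2, a paralog of the complex IV subunit Ndufa4 that is induced by low oxygen, did not.

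Complex I (NADH dehydrogenase) and complex II (succinate dehydrogenase) pass electrons to ubiquinone, complex III passes them on to cytochrome c, and complex IV (cytochrome c oxidase) hands them to oxygen. The proton gradient that complexes I, III and IV build drives ATP synthesis by complex V. Several complex IV subunits exist as a widely used isoform and an isoform known from muscle, testis or lung. Photoreceptors are known for a high demand for ATP, which is met by oxidative phosphorylation and by glycolysis, and their inner segments are packed with mitochondria.

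Expression was measured on 27 gene arrays in 9 groups of 3, each array made from 200 fluorescent cells sorted from dissociated adult retina. Arc cells came from the line Tg(Arc-EGFP)194Gsat/Mmcd, are labelled as Arc amacrine cells, and were meant as the study's own control for batches of arrays. Cone photoreceptors carried green fluorescence in the line Tg(Chrnb4-EGFP)1Gsat. Starburst amacrine cells, which release acetylcholine, came from crosses of 129S6-Chat_tm1(cre)Lowl/J with Rosa26-LSL-RFP mice, in which Cre turns on red fluorescence. Besides the pure cone and pure starburst groups, 6 groups were mixtures, with starburst and cone cells at 150:50, 125:75, 100:100, 50:150, 43:157 and 17:183. All groups share a mixed background of C57BL/6J and FVB/N-Swiss Webster hybrid, and part of the source stock is known to carry a recessive mutation that makes photoreceptors degenerate, which was backcrossed before the second filial generation was used. The cells were taken from pools of 2 retinas (cone line) and 6 retinas (starburst line), so an array of these cells comes from pooled retinas. Cell type and mouse line cannot be told apart. The labels give no array, hybridisation or scan batches.

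The values are log2 intensities summarised per probe set by the authors. Array medians lay between 2.78 and 2.89, and no array was identical to another. The mean of 10 cone markers was 8.56 in pure cones, against 3.67 in pure starburst cells, and that of 7 starburst markers was 3.14 in pure cones, against 6.03 in pure starburst cells. Arc cells had 3.27 for the cone markers, 2.96 for the starburst markers and 6.51 for 7 general amacrine markers. Among the starburst markers, the acetylcholine transporter gene Slc18a3 stood at 10.59 to 10.77 in pure starburst cells, while Chat itself stood at only 3.81 to 4.58. Some arrays stood apart. The third pure cone array had a cone marker mean of 7.61, against 9.04 and 9.03 on the first and second, and a rod marker mean of 8.85, against 7.43 and 7.44. The third arrays of 4 mixtures were low for the cone markers too, with 4.90 at 125:75 (against 7.01 and 6.93 on the other two), 7.03 at 50:150 (8.54 and 8.71), 6.07 at 43:157 (8.58 and 8.54) and 7.33 at 17:183 (9.08 and 8.83). The third 125:75 array lay below all 150:50 arrays (7.29 to 7.61), and the third 43:157 array below all but this one of the mixtures, so the markers on these arrays went against the labelled shares.

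The third arrays of some groups also stood apart for oxidative phosphorylation genes. On the third pure cone array 76 of 88 genes were below the mean of the other two arrays, with a median difference of -0.44, while 57.9% of all tested genes were below, with a median of -0.07. The third 43:157 array was lower for 69 of 88 genes (median -0.23), and the third 17:183 array for 70 of 88 (median -0.30). The 50:150 group did not follow this order: the third array was lower for 50 of 88 (median -0.10) and the first for 63 of 88 (median -0.13). Complex I genes deviated most on the third pure cone array, with a median of -0.55 from the mean of the 9 groups, and complex IV genes least, with -0.20. The rod marker mean of the third arrays of these 4 groups was the highest of each group, as the plot by array shows, and its part in the lower values was not tested. Each call of a single named gene below that rests on the third pure cone array is therefore given without it as well. The medians by complex, the counts by complex and the counts of genes without overlap include this array.

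**Figure D1:**
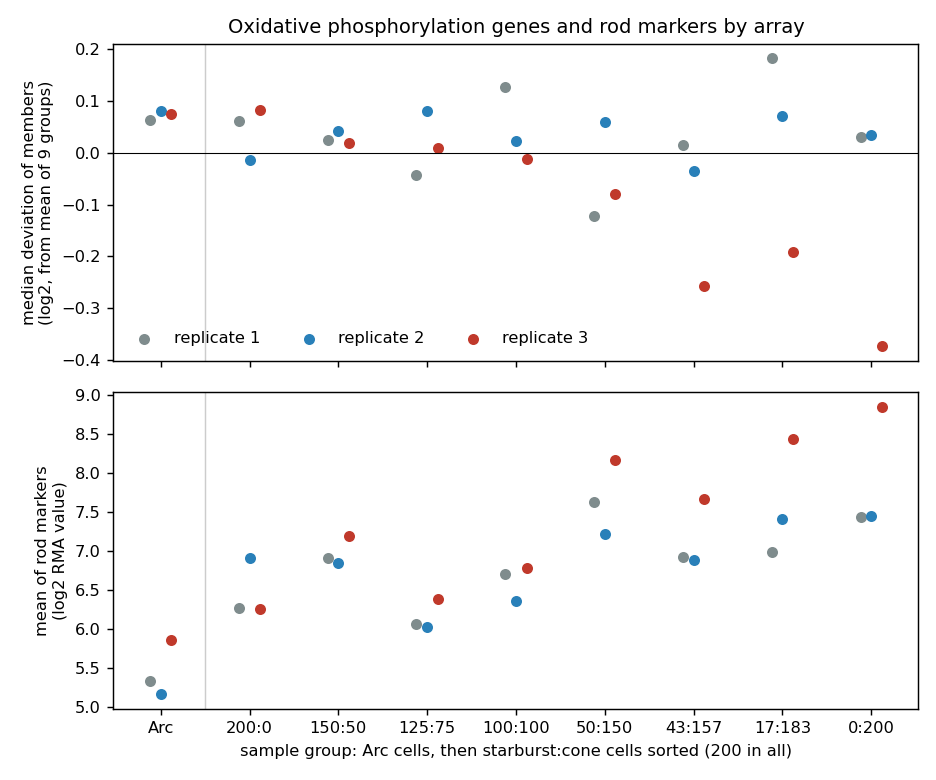
Upper panel, the median deviation of the 88 tested oxidative phosphorylation genes from their mean over 9 groups (log2) on each of 27 arrays; lower panel, the mean of 6 rod markers (log2 RMA value) on the same arrays, with colours for replicate number. The third pure cone array is lowest in the upper panel at -0.37 and highest in the lower panel at 8.85.

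Between cell types, few oxidative phosphorylation genes were called different. Of the 88 genes, 2 were higher and 6 were lower in pure cones than in pure starburst cells at an adjusted p under 0.05 (limma over 12441 genes). These were 9.09% of the genes, where 14.1% of all tested genes passed (4.4% higher and 9.69% lower), so they were called no more often than genes at large. Their median absolute difference was 0.22, against 0.27 over all genes. The called genes were the complex IV subunits Cox6a2, Cox4i1 and Cox8b, the complex I accessory subunits Ndufa6, Ndufa3, Ndufa1 and Ndufs4, and the ATP synthase gene Atp5g1. In such sorted samples fewer cells of a type and less RNA per cell cannot be told apart.

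In Arc cells 0 genes were higher and 1, Cox6a2, was lower than in pure starburst cells by limma, where 5.75% of all genes passed (3.5% higher and 2.24% lower). Against pure cones, 10 genes were higher in Arc cells and 0 were lower, where 17.7% of all genes passed (13.3% higher and 4.45% lower). Of these 10, 8 belong to complex I (Ndufa6, Ndufa3, Ndufs4, Ndufc1, Ndufs7, Ndufv2, Ndufa1 and Ndufc2) and 2 to complex V (Atp5d and Atp5k). With an absolute log2 difference of at least 1 required as well, 1 gene passed for cones against starburst cells, 1 for Arc against starburst cells and 2 for Arc cells against cones (8.42%, 3.55% and 10.3% of all genes). Both comparisons of Arc cells use the same 3 Arc arrays, and both comparisons of cones use the same 3 cone arrays.

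**Figure D2:**
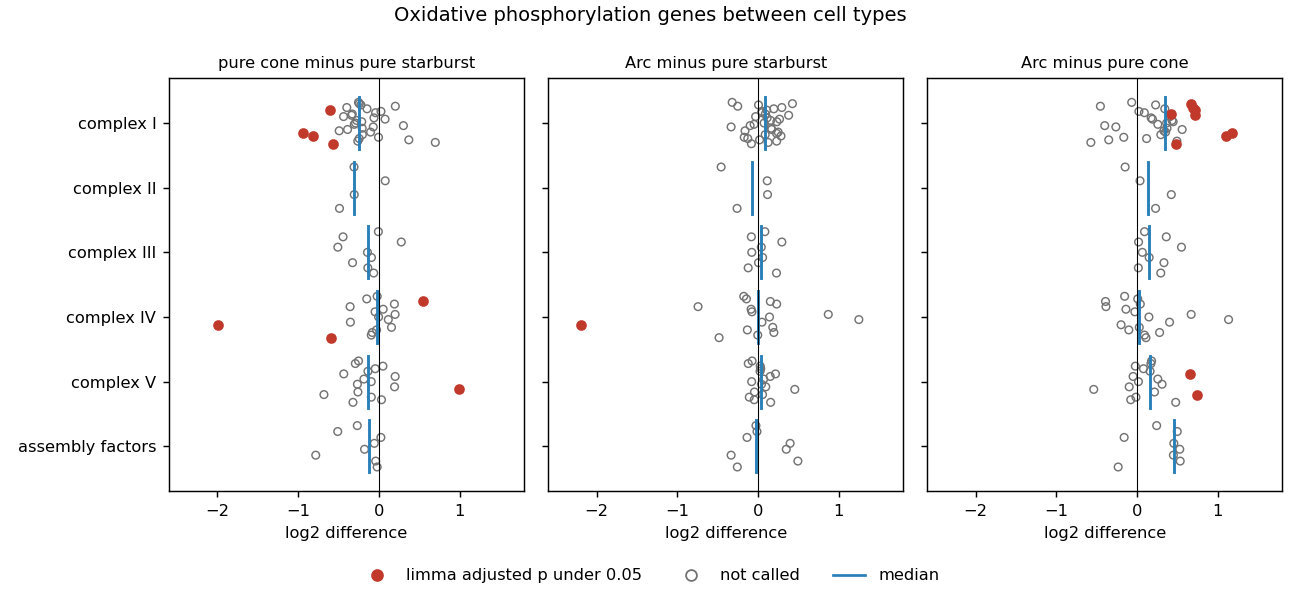
Log2 differences of the 88 tested genes by complex (rows) in 3 comparisons of cell types (panels); filled points passed limma at an adjusted p under 0.05, open points did not, and blue bars are medians. Cox6a2 stands alone at the left in the panels against pure starburst cells, at -2.0 in pure cones and -2.20 in Arc cells.

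As a group the genes lay slightly lower in pure cones than in pure starburst cells, with a median difference of -0.15 and 68 of 88 below 0, against -0.04 and 54.5% over all genes, but the median was 0.03 with 41 below 0 after quantile normalization was repeated, and -0.0008 with 44 below 0 without the third arrays. By complex, the medians were -0.24 for complex I, -0.31 for complex II, -0.14 for complex III, -0.03 for complex IV and -0.14 for complex V. Arrays of the groups did not overlap for 17 genes lower and 5 higher in cones, where 17.9% and 11% of all genes did so. The split of calls turned too: with quantile normalization repeated, 6 genes were called higher and 4 lower in cones, and for Arc cells against cones 7 higher and 6 lower. Between Arc and pure starburst cells the median was 0.05, against 0.03 over all genes, and 12 genes were higher and 11 lower without overlap (14.5% and 10.5% of all genes). Between Arc cells and pure cones the median was 0.18, against 0.07 over all genes, 0.03 with quantile normalization repeated and 0.08 without the third arrays, and 26 genes were higher and 3 lower without overlap (22.6% and 11.6% of all genes).

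Cox6a2, the heart and muscle isoform of cytochrome c oxidase subunit 6a, had the largest difference of the 88 genes in both comparisons with starburst cells. It measured 3.62, 3.97 and 4.77 in Arc cells and 4.71, 3.37 and 4.88 in pure cones, against 6.57, 6.07 and 6.32 in pure starburst cells. Every starburst array was above every Arc and cone array. The difference was -2.0 ± 0.39 (SE) for cones (limma, adjusted p = 0.00103) and -2.20 ± 0.39 for Arc cells (limma, adjusted p = 0.000761). Both calls held in each of 18 and 16 alternatives, with differences of -2.28 to -1.52 and -2.52 to -1.95. Between Arc cells and cones Cox6a2 differed by -0.20, with a 95% interval of -1.01 to 0.61 (limma, adjusted p = 0.797).

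Its widely used partner Cox6a1 was not called in these comparisons. Cox6a1 measured 10.55, 10.65 and 10.70 in Arc cells and 10.61, 10.76 and 10.44 in pure cones, against 10.47, 10.30 and 10.57 in pure starburst cells. The cone difference was 0.16, with a 95% interval of -0.08 to 0.39 (limma, adjusted p = 0.428), and cone and starburst arrays overlapped. Probe sets differ in their response, so the levels of Cox6a1 and Cox6a2 are not set against each other.

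**Figure D3:**
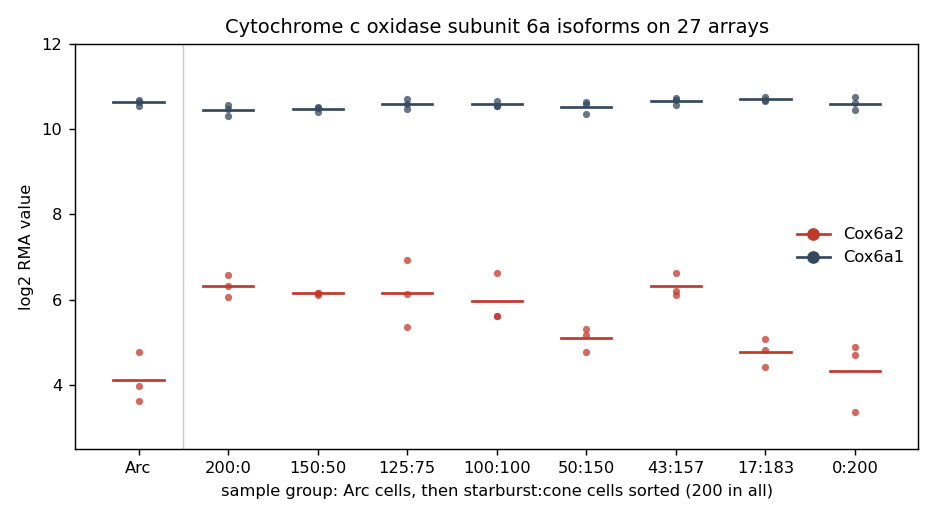
Log2 RMA values of Cox6a2 (red) and Cox6a1 (dark blue) on 27 arrays by group, with points for arrays and bars for the mean of 3. The Cox6a2 mean is 6.32 in pure starburst cells, 6.31 at 43:157, 6.15 at 150:50 and 125:75, and 5.96 at 100:100. It is 5.09 at 50:150, 4.77 at 17:183, 4.32 in pure cones and 4.12 in Arc cells. Cox6a1 lies between 10.30 and 10.76 on the arrays of Arc cells, pure cones and pure starburst cells. Levels of different probe sets are not comparable.

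In the titration Cox6a2 fell as cones replaced starburst cells. From low to high cone share it measured 6.57, 6.07 and 6.32 at 200:0, then 6.12, 6.16 and 6.16 at 150:50, then 6.63, 5.62 and 5.62 at 100:100, then 5.18, 5.31 and 4.77 at 50:150, and 4.71, 3.37 and 4.88 at 0:200. The slope, which is the fitted log2 difference between all cone and no cone cells over the 15 titration arrays, was -2.02 ± 0.35 (limma, adjusted p = 0.000247) and kept its call in all 15 alternatives. If each cell gave its pure group's mean in proportion to its share, the titration mixtures would be at 6.04, 5.68 and 5.20, and the observed means were 6.15, 5.96 and 5.09. The mixtures outside the titration were at 6.15 for 125:75 and 4.77 for 17:183, against 5.87 and 4.75 by cell share. The 43:157 mixture was the exception, with 6.63, 6.20 and 6.11 and a mean of 6.31, against 5.11 by cell share, so it stood at the level of pure starburst cells. This was seen after the values were examined and was not tested.

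Cox4i1 encodes the widely used form of subunit 4, an early building block of complex IV. Its values were 10.41, 10.44 and 10.56 in Arc cells and 10.68, 10.55 and 9.86 in pure cones, against 10.99, 10.86 and 11.02 in pure starburst cells. All Arc and cone arrays lay below all starburst arrays, and the third cone array was lowest. The cone difference was -0.59 ± 0.16 (limma, adjusted p = 0.0143). Without the third cone array it was -0.34 and without the third starburst array -0.56, and neither was called. It was also not called with the replicate number as a block over the 15 titration arrays, where its adjusted p was 0.0743 and the range over all alternatives 0.00394 to 0.319. Against starburst cells Arc cells differed by -0.48 ± 0.16 (limma, adjusted p = 0.0891). The slope on cone share was -0.54 ± 0.14 (limma, adjusted p = 0.0108), and -0.34 without the third pure cone array, where it was not called, nor was it with the block over titration arrays (adjusted p = 0.0589) or with all arrays of any 1 replicate number left out (range over alternatives 0.00168 to 0.184).

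Cox8b, the muscle isoform of subunit 8, was called higher in cones but sat at the dim end of the arrays. It measured 3.12, 2.73 and 2.68 in pure cones, against 2.21, 2.16 and 2.52 in pure starburst cells, where the median of all values was 2.83. That median was also the filter value. Cox8b passed the filter only through arrays that held cone cells, so its calls are not independent of the filter. The difference was 0.54 ± 0.16 (limma, adjusted p = 0.0228). It was not called without the first cone array (0.41), the first starburst array (0.50) or the second starburst array (0.48), nor with the block over titration arrays (0.54, adjusted p = 0.071, range over alternatives 0.0153 to 0.144). Over the titration its slope was 0.50 ± 0.14 (limma, adjusted p = 0.0169), which was not called with the block (adjusted p = 0.0566) or with the first or the second replicate number left out (0.34 and 0.53, range over alternatives 0.0103 to 0.213). Its common partner Cox8a differed by 0.19, with a 95% interval of -0.26 to 0.64, and was not called.

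The other isoforms of restricted tissues passed no test between cell types. Cox6b2, the testis isoform of subunit 6b, measured 5.0, 5.15 and 4.87 in Arc cells, against 4.42, 3.45 and 3.76 in pure cones and 3.75, 3.63 and 3.89 in pure starburst cells. Every Arc array was above every cone and starburst array, with differences of 1.13 ± 0.40 from cones (limma, adjusted p = 0.0517) and 1.25 ± 0.40 from starburst cells (limma, adjusted p = 0.0707). In the 100:100 mixture Cox6b2 measured 5.35, 3.84 and 5.11, so arrays without Arc cells reached the same level. Cox7a1, the muscle isoform of subunit 7a, measured 4.26, 4.71 and 4.15 in Arc cells, against 3.56, 3.49 and 4.05 in cones and 3.51, 3.57 and 3.42 in starburst cells. Its difference from starburst cells was 0.87 ± 0.31 (limma, adjusted p = 0.12). Cox4i2, Cox7b2 and Cox8c had means over 27 arrays of 3.15, 3.36 and 3.30 and were not called in any comparison. The common partners Cox6b1, Cox7a2, Cox7b and Ndufa4 differed between cones and starburst cells by -0.35, -0.05, 0.05 and -0.02 and were not called either. Of the 17 complex IV genes tested, 3 were called between cones and starburst cells (17.6%, where 14.1% of all genes passed), 1 between Arc and starburst cells (5.88%, where 5.75% passed) and 0 between Arc cells and cones (where 17.7% passed).

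Complex I, the largest set with 33 genes, had 4 called between cones and starburst cells (12.1%, where 14.1% of all genes passed), 0 between Arc and starburst cells (5.75%) and 8 between Arc cells and cones (24.2%, where 17.7% passed). The 4 were among the 27 accessory subunits, which surround the catalytic core (14.8%), and of 6 core genes 0 were called, so this share was near that of all genes. The 8 were all higher in Arc cells, where 13.3% of all genes were called higher. Without the third cone array only Ndufa6 and Ndufa3 of these 8 stayed called. Ndufa6, which binds the mitochondrial acyl carrier protein, measured 7.69, 7.91 and 7.99 in Arc cells and 6.97, 6.45 and 6.66 in pure cones, against 8.0, 7.40 and 7.50 in pure starburst cells. All cone arrays were below all arrays of the other two cell types. Ndufa6 differed by -0.94 ± 0.22 between cones and starburst cells (limma, adjusted p = 0.00513) and by 1.17 ± 0.22 between Arc cells and cones (limma, adjusted p = 0.000577). The second call held in each of 17 alternatives (0.84 to 1.31), and the first in 15 of 18 (-1.08 to -0.66), not with quantile normalization repeated, with only the groups compared, or without the third arrays. Leaving out the third cone array alone gave -0.92. Ndufa6 also fell over the titration, with a slope of -0.73 ± 0.20 (limma, adjusted p = 0.0122), not called with quantile normalization repeated (-0.44) or with the second or the third replicate number left out (-0.68 and -0.81).

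Ndufa3, a small subunit of the membrane arm, followed the same order but rested more on 1 array. It measured 8.86, 8.79 and 9.11 in Arc cells and 8.23, 8.20 and 7.01 in pure cones, against 8.62, 8.45 and 8.84 in pure starburst cells. All cone arrays lay below all Arc and starburst arrays, and the third cone array was far below the first and second. Cones differed from starburst cells by -0.82 ± 0.23 (limma, adjusted p = 0.0196). The difference was -0.42 without the third cone array, -0.83 without the first starburst array and -0.72 without the third, and none of these was called, nor was it with the block over titration arrays (adjusted p = 0.0592, range over alternatives 0.00697 to 0.335). Arc cells differed from cones by 1.11 ± 0.23 (limma, adjusted p = 0.0016) and by 0.70 without the third cone array, where the call held. The slope on cone share was -0.85 ± 0.21 (limma, adjusted p = 0.0064), -0.52 without the third pure cone array, still called, and -0.40 with the third titration arrays left out, not called.

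Ndufa1, an X-linked membrane arm subunit, had a smaller but tighter difference. Its values were 9.89, 10.09 and 9.85 in Arc cells and 9.55, 9.49 and 9.34 in pure cones, against 9.89, 9.92 and 10.27 in pure starburst cells. Cones were lowest on every array. The difference from starburst cells was -0.56 ± 0.13 (limma, adjusted p = 0.00527), and leaving out any 1 array of either group kept the call (-0.63 to -0.44). It was not called with the third arrays of all groups left out (-0.38) or with only the groups compared (adjusted p = 0.0996, range over alternatives up to 0.228). The slope on cone share was -0.58 ± 0.12 (limma, adjusted p = 0.0013), and -0.45 and not called with the third titration arrays left out. Arc cells differed from cones by 0.48 ± 0.13 (limma, adjusted p = 0.0134), which was not called without the second Arc array (0.41) or the third cone array (0.42).

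Ndufs4, an accessory subunit whose loss in mice is a model of Leigh syndrome, measured 9.16, 9.16 and 9.11 in Arc cells and 8.33, 8.76 and 8.19 in pure cones, against 8.93, 9.34 and 8.83 in pure starburst cells. The cone arrays again lay below the others without overlap. The cone difference of -0.61 ± 0.20 (limma, adjusted p = 0.0458) was near the threshold and held in 7 of 18 alternatives. It was not called without the first or the third cone array (-0.56 and -0.49) or the first or second starburst array (-0.66 and -0.45). Arc cells differed from cones by 0.71 ± 0.20 (limma, adjusted p = 0.015), and by 0.66 and 0.60 without the first and the third cone array, where it was not called. Over the titration the slope of Ndufs4 was -0.71 ± 0.18 (limma, adjusted p = 0.00801), not called with the first or the second replicate number left out (-0.78 and -0.66).

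Among the core subunits, which carry the iron-sulphur clusters and flavin, Ndufs7 and Ndufv2 were higher in Arc cells than in cones. Ndufs7 measured 9.04, 8.57 and 8.55 in Arc cells, against 8.10, 8.11 and 7.89 in pure cones, a difference of 0.69 ± 0.19 (limma, adjusted p = 0.0109). Without the first Arc array it was 0.53 and without the third cone array 0.62, and neither was called. Ndufv2 measured 8.53, 8.42 and 8.28 in Arc cells, against 8.18, 7.99 and 7.06 in pure cones, so that a large part of its difference of 0.67 ± 0.22 (limma, adjusted p = 0.0373) came with the third cone array. It was 0.33 without that array, and 0.61, 0.66 and 0.73 without the first, second and the third Arc array, and none of these was called. Ndufv2 was also not called with arrays centred on their median, with quantile normalization repeated or with array weights.

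Ndufc1 and Ndufc2, small accessory subunits of the membrane arm, were also higher in Arc cells than in cones. Ndufc1 measured 6.94, 7.04 and 6.67 in Arc cells, against 6.58, 6.33 and 5.59 in pure cones (0.72 ± 0.23, limma, adjusted p = 0.0339). Ndufc2 measured 10.55, 10.48 and 10.56 in Arc cells, against 10.23, 10.28 and 9.82 in pure cones (0.42 ± 0.13, limma, adjusted p = 0.0278). Both were lowest on the third cone array, and without it the differences were 0.43 and 0.27, neither called. Ndufc1 was not called without the first or second Arc array (0.69 and 0.64), and Ndufc2 not without any 1 Arc array (0.41 to 0.45). With arrays centred on their median neither was called, and Ndufc1 was not called with quantile normalization repeated or with array weights either.

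Complex V makes ATP as protons turn its membrane ring of c subunits. Atp5g1, Atp5g2 and Atp5g3 encode the same mature subunit c behind different targeting peptides. Their upstream sequences are shown because 1 of these genes was called between the cell types and the others were not. Each is the 250 bases before 1 start site of the gene from RefSeq's table (GRCm38.p6), on the minus strand of each chromosome. Capitals mark a match to the motif of NRF1, a factor known to drive nuclear genes of mitochondria, on either strand. Atp5g1 lies at chr11:96075632-96075881, Atp5g2 at chr15:102671048-102671297 and Atp5g3 at chr2:73911327-73911576. The annotated genes reach further out than these start sites, so 63 bases of the Atp5g1 window and all 250 of the Atp5g3 window lie inside the annotated gene.
Atp5g1: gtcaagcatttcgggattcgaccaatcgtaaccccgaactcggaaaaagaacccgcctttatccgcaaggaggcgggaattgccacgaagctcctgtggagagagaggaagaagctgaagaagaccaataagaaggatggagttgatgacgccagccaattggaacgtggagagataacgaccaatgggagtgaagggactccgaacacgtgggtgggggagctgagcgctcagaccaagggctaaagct
Atp5g2: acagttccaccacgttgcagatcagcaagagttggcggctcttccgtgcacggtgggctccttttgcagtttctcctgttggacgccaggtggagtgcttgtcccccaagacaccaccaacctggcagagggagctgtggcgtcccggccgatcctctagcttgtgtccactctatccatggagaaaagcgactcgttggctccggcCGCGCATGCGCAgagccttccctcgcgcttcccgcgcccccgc
Atp5g3: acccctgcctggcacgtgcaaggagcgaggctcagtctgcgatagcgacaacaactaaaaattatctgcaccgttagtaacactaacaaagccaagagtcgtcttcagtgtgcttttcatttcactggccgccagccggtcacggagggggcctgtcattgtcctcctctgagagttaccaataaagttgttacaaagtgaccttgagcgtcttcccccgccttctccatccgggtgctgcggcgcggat
The match in Atp5g2 lies 43 to 32 bases before the start site. The other two windows hold none of the motifs searched.

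Atp5g1 measured 6.67, 6.76 and 6.63 in Arc cells and 7.57, 7.54 and 6.56 in pure cones, against 6.27, 6.14 and 6.29 in pure starburst cells. All cone arrays were above all starburst arrays, and the third cone array was close to the Arc arrays. The difference between cones and starburst cells was 0.99 ± 0.29 (limma, adjusted p = 0.0249). It was 1.32 without the third cone array, where the call held, and 0.82 and 0.84 without the first and second, where it was not called. Leaving out the first, second or the third starburst array gave 1.01, 0.95 and 1.02, and again no call. Arc cells differed from starburst cells by 0.46 ± 0.29 (limma, adjusted p = 0.517).

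Over the titration Atp5g1 rose with cone share. From low to high it measured 6.27, 6.14 and 6.29 at 200:0, then 6.43, 6.63 and 6.58 at 150:50, then 7.08, 6.80 and 6.45 at 100:100, then 6.97, 7.27 and 6.33 at 50:150, and 7.57, 7.54 and 6.56 at 0:200. The third array was the lowest of its group from 100:100 upward. The slope was 0.92 ± 0.26 (limma, adjusted p = 0.0178). It was 1.18 without the third pure cone array, where the call held, and 0.75 and 0.69 with the first and the second replicate number left out, where it did not. The sister genes were not called. Atp5g2 differed between cones and starburst cells by 0.19 (95% interval -0.16 to 0.55, limma, adjusted p = 0.523) and Atp5g3 by -0.27 (95% interval -0.56 to 0.03, limma, adjusted p = 0.239). The difference between the sister genes was not tested.

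**Figure D4:**
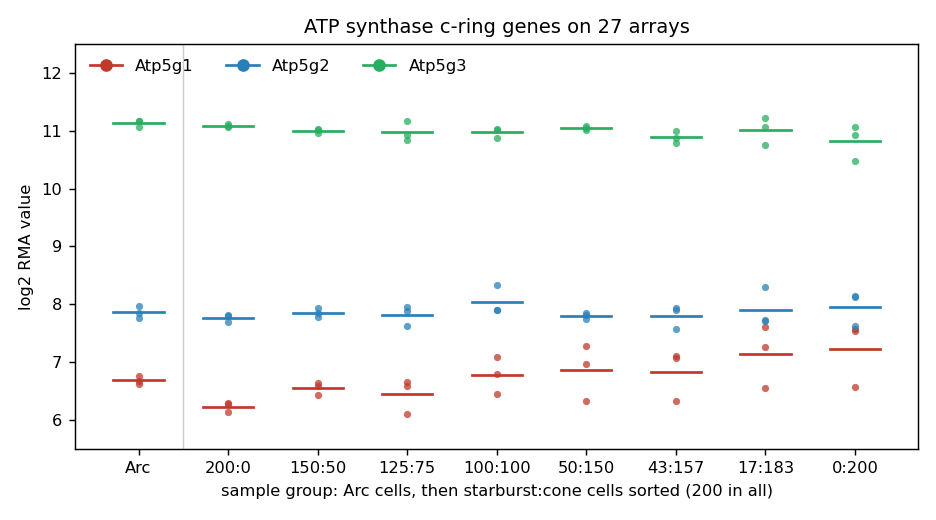
Log2 RMA values of the c subunit genes Atp5g1 (red), Atp5g2 (blue) and Atp5g3 (green) on 27 arrays by group, with points for arrays and bars for the mean of 3. The Atp5g1 mean is 7.22 in pure cones, against 6.23 in pure starburst cells, while the other genes were not called between them; levels of different probe sets are not comparable.

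Other ATP synthase genes were higher in Arc cells than in cones. Atp5d, the delta subunit of the central stalk, measured 9.71, 9.39 and 9.73 in Arc cells, against 8.74, 9.0 and 8.88 in pure cones, with no overlap. The difference was 0.74 ± 0.25 (limma, adjusted p = 0.0437) and held in 8 of 17 alternatives. It was not called without the first or the third Arc array (0.69 and 0.68) or without any 1 cone array (0.67 to 0.80). Atp5k, subunit e at the interface between synthase dimers, measured 9.82, 9.75 and 9.96 in Arc cells, against 9.24, 9.49 and 8.84 in pure cones. Its difference was 0.65 ± 0.16 (limma, adjusted p = 0.00681), and 0.48 and not called without the third cone array. Both also fell over the titration, Atp5d with a slope of -0.69 ± 0.22 (limma, adjusted p = 0.0361) and Atp5k with -0.46 ± 0.15 (limma, adjusted p = 0.0323). Without the third pure cone array these slopes were -0.69 and -0.32 and were not called. With the first and the second replicate number left out they were -0.46 and -0.78 for Atp5d and -0.43 and -0.63 for Atp5k, and none was called. Atp5k was not called with the block over titration arrays either (adjusted p = 0.127, range over alternatives 0.0321 to 0.296). Of 17 complex V genes tested, 1 was called between cones and starburst cells (5.88%, where 14.1% of all genes passed), 0 between Arc and starburst cells (where 5.75% passed) and 2 between Arc cells and cones (11.8%, where 17.7% passed).

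No gene of complex II (4 tested) or complex III (9 tested) was called between cell types. Of all genes 14.1% passed for cones against starburst cells, 5.75% for Arc against starburst cells and 17.7% for Arc cells against cones, so with so few genes this says little. The largest complex II difference between cones and starburst cells was that of Sdha, the flavoprotein of succinate dehydrogenase, with 8.10, 8.79 and 8.0 in pure cones, against 8.78, 8.88 and 8.70 in pure starburst cells. At -0.49 ± 0.34 (limma, adjusted p = 0.4) it was within the spread of the arrays. Sdhb, the iron-sulphur subunit, differed by 0.42 ± 0.21 between Arc cells and cones (limma, adjusted p = 0.186), and Sdhd, a membrane anchor, differed by -0.46 ± 0.35 between Arc and starburst cells (limma, adjusted p = 0.628). In complex III, Uqcrc2, a core protein, measured 8.94, 8.77 and 8.73 in Arc cells and 8.56, 8.24 and 7.99 in pure cones, against 8.92, 8.77 and 8.62 in pure starburst cells. Cones lay below both without overlap, yet the differences of -0.51 ± 0.20 from starburst cells (limma, adjusted p = 0.0979) and 0.55 ± 0.20 for Arc cells over cones (limma, adjusted p = 0.0614) did not pass. Uqcrfs1, the Rieske iron-sulphur protein, differed by 0.30 ± 0.23 between Arc and starburst cells (limma, adjusted p = 0.641).

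Among the 8 assembly factors, 0 were called between cell types. Of all genes 14.1% passed for cones against starburst cells, 5.75% for Arc against starburst cells and 17.7% for Arc cells against cones. At these shares 0 calls among so few genes say little. Cox7a2l, which joins complexes III and IV into supercomplexes, differed by -0.02 between cones and starburst cells, with a 95% interval of -0.42 to 0.38 (limma, adjusted p = 0.964). Ndufaf6, a complex I assembly factor, had a called slope on cone share of -0.96 ± 0.31 (limma, adjusted p = 0.0332), not called without the third pure cone array (-0.98), with the second or the third replicate number left out (-1.04 and -0.90) or with quantile normalization repeated (-0.74). Its lowest titration mean was at 50:150, with 3.89, 4.93 and 4.29, against 4.56, 5.40 and 5.07 in pure cones and 5.11, 5.91 and 5.53 in pure starburst cells. A departure from a straight line was not tested.

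Over the whole titration, 2 genes rose and 9 fell with cone share by limma, where 16.9% of all genes passed (4.9% higher and 12% lower), and 1 gene had a slope of at least 1 in size (8.35% of all genes). Cox8b and Atp5g1 rose, and Cox6a2, Ndufaf6, Ndufa3, Ndufa6, Ndufs4, Atp5d, Ndufa1, Cox4i1 and Atp5k fell. The median slope was -0.17, with 68 of 88 below 0, against -0.05 over all genes, but 0.01 with quantile normalization repeated, where 6 rose and 5 fell, and -0.05 without the third pure cone array.

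Across all 9 groups, 7 genes differed by limma's F test, where 17.5% of all genes passed, and 3 also had a range of group means of at least 1 (13.5% of all genes). The 7 were Cox6a2 (adjusted p = 0.000197), Ndufa1 (0.0128), Ndufa6 (0.0172), Ndufs4 (0.0192), Ndufa3 (0.0286), Ndufa9 (0.0309) and Cox4i1 (0.0362), and 5 of the 7 are complex I genes. Complex I is the largest set, with 33 of the 88 genes, and 5 of 33 is no larger a share than the 17.5% of all genes. Without the third pure cone array Ndufa6 (adjusted p = 0.068) and Ndufa1 (0.0509) were not called. With all arrays of 1 replicate number left out at a time, Cox4i1, Ndufa1, Ndufa3, Ndufa9 and Ndufs4 were called in no case, Ndufa6 only without the first number, and Cox6a2 without the first and the third but not the second (0.0559). Ndufa9, an accessory subunit at the junction of the arms, was called in no comparison of pure cell types. Its lowest values were in the 43:157 mixture, with 7.45, 7.24 and 7.37, against 8.27, 7.65 and 7.38 in pure cones and 8.13, 8.12 and 8.21 in pure starburst cells. The range of the 9 group means had a median of 0.51 over the members and 0.66 over all genes, with median replicate SDs of 0.23 and 0.28. By complex, this range had a median of 0.52 for complex I, 0.63 for II, 0.55 for III, 0.40 for IV and 0.31 for V, as the map of group means shows.

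**Figure D5:**
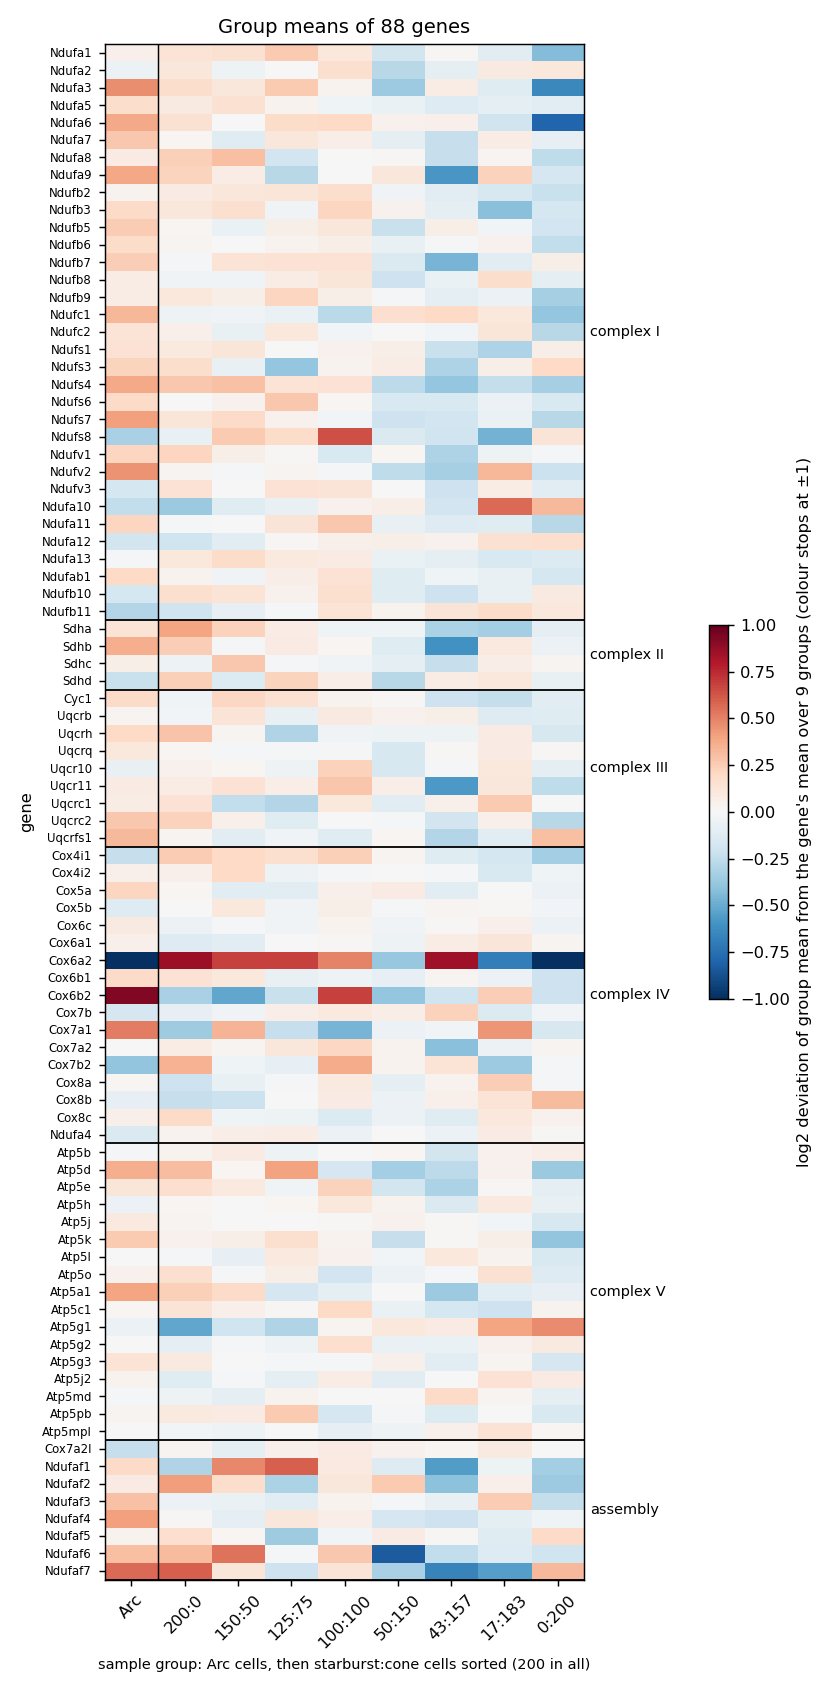
Group means of the 88 tested genes as log2 deviations from each gene's mean over 9 groups (red higher, blue lower), with genes ordered by complex and columns for Arc cells and for starburst:cone mixtures. Cox6a2 has the widest range of group means, 2.20, and most complex V rows are pale.

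Genes that work beside these complexes were followed as a list of 98, of which 81 had a probe set and 74 were tested. In pure cones 4 were higher and 11 lower than in starburst cells (4.4% and 9.69% of all genes were). In Arc cells 2 were higher than in starburst cells and 0 lower (3.5% and 2.24%), and 12 were higher and 4 lower than in cones (13.3% and 4.45%). The lists below are short, and their counts are to be read beside these shares. Many of these calls rest on single arrays: without the third cone array 7 of the 15 for cones against starburst cells and 6 of the 16 for Arc cells against cones stayed called. Subunits encoded by the mitochondrial genome went the other way from the called nuclear complex I genes, although only 2 of 13 had a probe set of their own. The probe set named COX2, for mitochondrial cytochrome c oxidase subunit 2, measured 11.08, 11.02 and 11.44 in pure cones, against 10.31, 10.08 and 10.69 in pure starburst cells (0.82 ± 0.20, limma, adjusted p = 0.0057). ND3, for a mitochondrial complex I subunit, measured 7.45, 7.59 and 7.91 in pure cones, against 6.92, 6.77 and 7.32 in pure starburst cells (0.64 ± 0.21, limma, adjusted p = 0.039). Without the third cone array COX2 differed by 0.69 and stayed called, and ND3 by 0.51 and was not called. ND3 was also not called without the second cone array (0.67) or the first or second starburst array (0.60 and 0.52). Both were highest on the third cone array, on which the nuclear genes were low, and mitochondrial transcripts and their nuclear copies cannot be told apart on the array. COX2 was lower in Arc cells than in cones (-0.60 ± 0.20, limma, adjusted p = 0.036), but not called without the first or second Arc array (-0.45 and -0.62) or the first or the third cone array (-0.65 and -0.47). The slopes on cone share were 0.91 ± 0.17 for COX2 and 0.71 ± 0.18 for ND3 (limma, adjusted p = 0.000733 and 0.0089). Both slopes stayed called without the third pure cone array, and ND3 was not called with the second replicate number left out (0.65).

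Atpif1, the inhibitor of ATP synthase, measured 10.25, 10.29 and 9.99 in Arc cells and 9.61, 9.18 and 8.62 in pure cones, against 9.77, 9.72 and 9.74 in pure starburst cells. It was lower in cones than in starburst cells (-0.61 ± 0.20, limma, adjusted p = 0.0457) and higher in Arc cells than in cones (1.04 ± 0.20, limma, adjusted p = 0.000697). The second call held in each of 16 alternatives. The first was lost without the third cone array (-0.35), the second cone array (-0.63) or any 1 starburst array (-0.62 to -0.59), and with the block over titration arrays (adjusted p = 0.0746, range over alternatives 0.00605 to 0.317). Cytochrome c (Cycs) and its testis form Cyct were not called. Of 34 further assembly factors tested, 2 were higher in cones than in starburst cells, Uqcc3 (1.36 ± 0.33, for complex III) and Sdhaf2 (1.02 ± 0.30, for complex II). The 4 lower ones were Atpaf1 (-1.34 ± 0.29, for complex V), Ttc19 (-1.10 ± 0.27, for complex III), Sdhaf3 (-1.01 ± 0.29) and Cox14 (-0.70 ± 0.16). Uqcc3 and Atpaf1 were called in each of 17 alternatives. Without the third cone array Ttc19 (-0.72) and Sdhaf3 (-0.85) were not called, and Sdhaf3 was not called without the first or the third starburst array either (-0.95 and -0.90). Sdhaf2 was not called without the first cone array (0.91) or the first or second starburst array (1.04 and 0.94), nor with the block over titration arrays (adjusted p = 0.0724, range over alternatives 0.0121 to 0.128). Cox14 was not called with quantile normalization repeated (-0.41) or with only the groups compared. Sdhaf4, an assembly factor of complex II, set Arc cells apart, with 6.02, 5.54 and 5.12, against 3.13, 3.29 and 3.00 in pure cones and 2.71, 2.79 and 4.05 in pure starburst cells (2.42 and 2.38, limma, adjusted p = 6.08e-06 and 1.75e-05), and both calls held in all 16 and 15 alternatives.

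Between Arc cells and cones 4 of these assembly factors were higher and 2 lower. Besides Sdhaf4, Uqcc2 (1.00 ± 0.25, for complex III, limma, adjusted p = 0.00572) and Uqcc3 (-1.39 ± 0.33, limma, adjusted p = 0.00427) were called in each of 16 alternatives. Ttc19 (1.02 ± 0.27, limma, adjusted p = 0.00984) was not called without the third cone array (0.64), and Atpaf1 (0.96 ± 0.29, limma, adjusted p = 0.0227) not without the first or the third Arc array (0.93 and 0.91) or the first or the third cone array (0.95 and 0.93). Over the titration 1 assembly factor rose and 7 fell with cone share (4.9% and 12% of all genes). The largest slopes were those of Uqcc1 (-1.21 ± 0.39), Uqcc3 (1.19 ± 0.29), Ttc19 (-1.14 ± 0.24), Atpaf1 (-1.05 ± 0.26) and Sdhaf3 (-0.86 ± 0.26). Without the third pure cone array Uqcc1 (-1.05) and Sdhaf3 (-0.73) were not called, and Uqcc1 was not called with the block over titration arrays either (adjusted p = 0.0574, range over alternatives 0.028 to 0.212). With the second replicate number left out none of the 5 was called (Uqcc1 -1.37, Uqcc3 0.97, Ttc19 -1.11, Atpaf1 -1.10 and Sdhaf3 -0.96).

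Of 12 tricarboxylic acid cycle genes 0 were higher and 2 lower in cones than in starburst cells (4.4% and 9.69% of all genes were), Ogdh (-0.95 ± 0.22) and Mdh2 (-0.71 ± 0.24), and 2 were higher in Arc cells than in cones (13.3% of all genes), Idh3b (1.00 ± 0.31) and Ogdh (0.64 ± 0.22). Mdh2 was not called without the third cone array (-0.47), the second (-0.82) or any 1 starburst array (-0.80 to -0.62), and Ogdh not without the first starburst array (-0.69). Between Arc cells and cones Idh3b differed by 0.47 without the third cone array and by 0.97 to 1.02 without any 1 Arc array, and Ogdh by 0.55 to 0.72 without any 1 array, and none of these was called. Ogdh was not called there with the replicate number as a block either (adjusted p = 0.0554, range over alternatives 0.0456 to 0.211). Over the titration Ogdh (-0.75 ± 0.20), Mdh2 (-0.72 ± 0.21) and Dlst (-0.61 ± 0.20) fell with cone share. Without the third pure cone array Mdh2 (-0.53) and Dlst (-0.59) were not called, Dlst was not called with the block over titration arrays (adjusted p = 0.106, range over alternatives 0.00876 to 0.239), and with the second replicate number left out none of the 3 was called (Ogdh -0.94, Mdh2 -0.88 and Dlst -0.75). Vdac1, the main channel of the outer mitochondrial membrane, was higher in Arc cells, with 6.61, 6.76 and 6.94, against 4.51, 4.56 and 4.37 in pure cones and 4.81, 5.35 and 5.08 in pure starburst cells (2.29 and 1.69), and both calls held in all 16 and 15 alternatives. Vdac3 was lower in cones than in starburst cells (-0.47 ± 0.14), but not called without the third cone array (-0.31), the first or second starburst array (-0.49 and -0.41) or with the block over titration arrays (adjusted p = 0.1, range over alternatives 0.0229 to 0.247). Vdac3 was higher in Arc cells than in cones (0.43 ± 0.14), and not called without any 1 Arc array (0.41 to 0.46) or the third cone array (0.27). Of the enzymes that feed electrons to ubiquinone by other routes, Etfdh (-1.26 ± 0.42) and Gpd2 (-1.25 ± 0.41) were lower in cones. Etfdh differed by -0.88 without the third cone array, -1.44 and -1.45 without the first and second, and -1.13 without the first or the third starburst array, none of them called, and was not called with the replicate block over all arrays (adjusted p = 0.0553) or over titration arrays (adjusted p = 0.117, range over alternatives 0.0405 to 0.277). Gpd2 differed by -1.28, -1.21 and -1.26 without the first, second and the third cone array and by -1.0 and -1.27 without the first and second starburst array, none of them called. Both were called higher in Arc cells than in cones, Etfdh by 1.23 ± 0.42 and Gpd2 by 1.17 ± 0.41, and lost the call without the third cone array (0.85 and 1.18) and with the replicate number as a block (adjusted p = 0.0509 and 0.0538, range over alternatives 0.04 to 0.233 and 0.0329 to 0.301). Etfdh was also not called without any 1 Arc array (1.05 to 1.41), and Gpd2 not without the second or the third Arc array (1.11 and 0.94) or the first or second cone array (1.20 and 1.13). The slope of Gpd2 was -1.30 ± 0.36 (limma, adjusted p = 0.0159), still called without the third pure cone array and not called with the first or the second replicate number left out (-0.89 and -1.45). Among 12 regulators of mitochondrial biogenesis 1 was lower in cones than in starburst cells and 0 higher (9.69% and 4.4% of all genes were), Tfb1m (-1.50 ± 0.31), a methyltransferase of mitochondrial ribosomal RNA, which was called in each of 17 alternatives. Tfb1m was higher in Arc cells than in cones (1.12 ± 0.31), but not called without the first or second Arc array (1.03 and 1.02) or the second or the third cone array (0.99 and 0.92). Its slope was -1.02 ± 0.27 (limma, adjusted p = 0.0125), and -0.86 and not called without the third pure cone array. Nfe2l2, a factor of the response to oxidative stress, was lower in Arc cells than in cones (-0.91 ± 0.28), and not called without the first or the third Arc array (-0.87 and -0.76) or the second or the third cone array (-0.65 and -0.79). Ppargc1a, a coactivator of mitochondrial genes, had a called slope on cone share of 1.23 ± 0.39 (limma, adjusted p = 0.0332), which was not called with the block over titration arrays (adjusted p = 0.0506, range over alternatives 0.0047 to 0.438) or with the first or the second replicate number left out (0.74 and 0.95).

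The promoters of the family were searched for motifs known from nuclear genes of mitochondria. Of the 89 genes, 72 had at least 1 upstream window of 250 bases in RefSeq's table (GRCm38.p6), and both strands were read. The table holds 32851 windows for 27025 genes. A gene with several windows was counted once if any of them held the motif. For 16 of the 72, the first window listed reached inside the gene's annotated span. The NRF1 motif was found for 4 of 72 genes (5.56%), against 1.12% of 27025 genes with windows of the same length, and a core of 10 letters of it for 12 (16.7%), against 4.23%. The ETS motif CCGGAAG, read by GABP, was found for 13 (18.1%), against 7.83%, and the YY1 motif AANATGGCG for 3 (4.17%), against 1.29%. At least 1 of the NRF1, ETS and YY1 motifs was found for 18 genes (25%), against 9.74%, and genes with several are counted once there. The NRF1 and YY1 motifs share letters at their ends, so their matches can overlap. A match describes letters and not a bound factor, and Cox6a2 and Cox4i1 were not among the genes with a window.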

How the data were processed

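Each array held cells sorted from adult mouse retina. Values were made by the authors with RMA in the package oligo (R 2.11.1, mm9 named), per the submitters' processing notes, and deposited as log2 intensities per probe set. The arrays normalized together are not given in the sources used here. Of 22347 probe sets, 19446 had 1 gene symbol, 735 several and 2166 none; the last 2 kinds were left out. All 89 members matched a current symbol by Entrez number and 0 changed. A gene was tested if 3 or more arrays exceeded 2.83, the median value of the whole table.

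A single model in limma 3.58.1 (R 4.3.3) gave each of 9 groups a mean over 27 arrays, with 18 residual and 3.42 prior degrees of freedom. Tests were two-sided. The threshold was 0.05 for p-values adjusted over 12441 genes by Benjamini-Hochberg. Errors are standard errors of the fit. The number of arrays limits the precision, and p-values measure the spread between arrays of sorted cells. Steps were tested on simulated data. The members and lists were chosen with earlier results of these data known. Named genes are all called members, the largest difference per complex and comparison, the isoforms of restricted tissues with their partners, and the called genes of the companion lists, at most 5 per list and comparison. Outside this rule, Cox6a2 in the 43:157 mixture, Cox6b2 at 100:100, Ndufaf6 at 50:150, Atp5g2, Atp5g3 and Cox14 were chosen after seeing their values.

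The study's design says that the titration was sorted 3 times from different mice, so replicate numbers pair the titration arrays. As a check, deviations from the group means correlated over 0.1 in 3 of 30 pairs of arrays with the same number (-0.03 to 0.24, median 0.02, against -0.02 for different numbers). Deviations cancel within each group, so the value for different numbers largely follows from the other and is no separate baseline. The labels do not say whether the other mixtures share these pools. Pure cones and the 17:183 mixture correlated over 0.1 for each number (0.197, 0.125 and 0.305). Alternatives were other filters, scalings, array weights, blocks, sets of arrays, probe set means and a fold minimum. Leaving out the third pure cone array from the slope and F test, and the third arrays of the 4 cone-rich groups, was chosen after seeing the data.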

Additional observations from a re-analysis of the deposited data

How the results depend on the processing

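Counts of called oxidative phosphorylation genes were 8 for pure cones against starburst cells, 1 for Arc against starburst cells, 10 for Arc cells against cones, 11 for the slope and 7 across 9 groups. Of all tested genes 14.1%, 5.75%, 17.7%, 16.9% and 17.5% were called in the same order. An added minimum of 1 on the absolute log2 difference left 1, 1, 2, 1 and 3 (8.42%, 3.55%, 10.3%, 8.35% and 13.5% of all genes). The counts that follow are given without the share of all genes called in the same fit. Whether a change in them is particular to these genes was not tested. Fits to only the groups compared called 2, 3 and 4 in the 3 comparisons of cell types, where fewer arrays estimate the spread. Without the third arrays of all groups, 4 were called for cones against starburst cells and 4 for Arc cells against cones. Centring each array on its median gave 2 for Arc against starburst cells, and array weights gave 4 there and 12 across groups; the cause was not tested. With 1 array or replicate number left out at a time, the counts were 4 to 8, 1 to 1, 3 to 13, 3 to 6 and 1 to 4 in the same order.

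Single arrays moved the counts. For cones against starburst cells 5 were called without the third cone array, 4 without the first starburst array and 5 without the second or the third. For Arc cells against cones 3 were called without the third cone array, and 5 and 6 without the first and second Arc array. With the replicate number as a block the counts were 8, 1, 12, 12 and 9, and with the block over the 15 titration arrays 6 and 10 for cones against starburst cells and the slope. The calls of oxidative phosphorylation genes and of the companion genes named for that comparison that this paired fit lost are given with the genes, and the block moved no count by over 1.5 times. No named gene or called companion gene turned its direction under an alternative while called in either fit. Other oxidative phosphorylation genes, among them any that gained a call only under an alternative, were not followed for this. Among the single genes followed, companion genes included, 2096 values kept their side of the threshold and, in tests with a direction, their direction. A call was lost by 442, in part through the added fold minimum, and gained by 18. The remaining 82 turned their direction without being called in either fit. Quantile normalization repeated changed the split from 2 higher and 6 lower to 6 and 4 in cones, from 10 and 0 to 7 and 6 for Arc cells against cones, and from 2 and 9 to 6 and 5 for the slope.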
